A study of Mus musculus with 41 samples.

Results

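The genes described here are the glucose transporter Slc2a1 and the glycolytic enzymes Hk2, Pfkl, Aldoa, Tpi1, Gapdh, Pgk1, Eno1, Pkm and Ldha, 10 genes listed by symbol. Probe sets were found by these symbols in the platform annotation, and 9 of the 10 genes had at least 1, while Eno1 was not analysed here. The 9 genes have 17 of the 28898 probe sets that the annotation gives to a single gene, and they are 9 of the 17097 genes tested. A gene with several probe sets was represented by the one whose mean across the arrays was highest.

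Glycolysis turns glucose into pyruvate in the cytosol and yields ATP without oxygen. Slc2a1 carries glucose through the plasma membrane, Hk2 traps it as glucose 6-phosphate, and Pfkl catalyses the committed step. Aldoa splits fructose bisphosphate, Tpi1 interconverts the resulting trioses, Gapdh oxidises and phosphorylates the triose, and Pgk1 makes ATP from its product. Pkm forms pyruvate, and Ldha reduces pyruvate to lactate and so regenerates NAD+. In the epidermis, whose basal layer is fed by diffusion from the dermis, glycolysis is known to be a prominent source of energy. Several of these genes are textbook targets of the hypoxia-inducible factor HIF-1, and Gapdh is widely used as a reference gene.

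RNA came from epidermal stem cells of wild type female C57B6/J mice aged 15 weeks, which had eaten a control or a high fat diet freely for 7 weeks from the age of 8 weeks. Cells were taken at 6 zeitgeber times 4 h apart, with ZT0 conventionally the time of lights on. From ZT0 to ZT20 there were 4, 3, 2, 3, 4 and 4 control arrays and 3, 4, 2, 4, 4 and 4 high fat arrays, where 4 mice per group were planned. The sort or dissection that gave the cells is not described in the sources used here. All mice killed on 1 day belonged to a single time point, so collection day and time point cannot be told apart. The labels number the arrays without saying that each is a separate mouse, so the tests see array-to-array spread, which may be technical.

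The values are RMA expression values on the log2 scale, from 2.17 to 13.5 over the whole table. Array medians over all probe sets lay between 6.41 and 6.44. Medians over the genes tested ran from 6.80 in control ZT8 replicate 2 to 6.98 in high fat ZT12 replicate 1. The basal keratinocyte markers Krt5, Krt14, Col17a1 and Trp63 lay above the 99th percentile of the genes tested, a rank that mixes level with probe affinity. Of the bulge markers, Krt15 was also that high, and Nfatc1, Sox9 and Tcf7l1 lay at the 90.4th, 86.1st and 58.5th percentile. Lower were Lhx2 at the 28.5th, Lgr5 at the 25.9th and Cd34 at the 16.9th percentile. The suprabasal keratins Krt1 and Krt10 were above the 99th percentile too, and the other suprabasal markers ran from Lor at the 40.4th to Sbsn at the 98.7th. Leukocyte and Langerhans markers ran from Ptprc at the 1.71st to H2-Ab1 at the 76.1st percentile, with H2-Aa at the 73.2nd and Cd74 at the 70.6th. On the second principal component the pair of control arrays from ZT8 lay apart, at -33.1 and -42.7. A level measured in bulk RNA cannot tell fewer cells of a type from less RNA per cell.

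The promoters of Hk2, Pgk1 and Gapdh are shown because these were the 3 genes with the smallest p of the tests between time points. Each is the 250 bases before the annotated start in RefSeq's GRCm38.p6, written 5′ to 3′ on the gene's strand. Hk2 is on the minus strand at chr6:82774455-82774704, Pgk1 on the plus strand at chrX:106186850-106187099, and Gapdh on the minus strand at chr6:125165774-125166023. Capitals mark ACGTG or GCGTG on either strand, the 5-base cores to which HIF-1 is known to bind.
Hk2: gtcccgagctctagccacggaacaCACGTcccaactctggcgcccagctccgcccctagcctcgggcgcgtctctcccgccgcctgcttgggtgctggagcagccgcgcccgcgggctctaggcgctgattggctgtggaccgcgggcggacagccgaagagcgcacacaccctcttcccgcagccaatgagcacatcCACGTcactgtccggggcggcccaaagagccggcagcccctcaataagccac
Pgk1: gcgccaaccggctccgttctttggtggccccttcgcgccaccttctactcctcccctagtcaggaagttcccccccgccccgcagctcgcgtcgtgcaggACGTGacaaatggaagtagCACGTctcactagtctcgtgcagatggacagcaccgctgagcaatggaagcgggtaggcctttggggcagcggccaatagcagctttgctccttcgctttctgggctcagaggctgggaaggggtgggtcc
Gapdh: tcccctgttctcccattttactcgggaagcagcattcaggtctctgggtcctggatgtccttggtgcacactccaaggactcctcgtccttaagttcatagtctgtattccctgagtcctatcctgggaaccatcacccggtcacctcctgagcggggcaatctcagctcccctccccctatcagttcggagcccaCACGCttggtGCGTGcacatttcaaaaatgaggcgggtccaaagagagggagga
ACGTG lay 226 and 52 bases before the start of Hk2 and 150 and 131 bases before the start of Pgk1. Gapdh had GCGTG at 54 and 44 bases before its start. ACGTG occurred in at least 1 window of 6 of the 9 genes, against 16.6% of all 32817 promoter windows of that length, and GCGTG in 4 of 9 genes against 28.1% of windows. The E-box CACGTG, which contains ACGTG and which clock factors are known to bind, occurred in the window of 1 of the 9 genes, Ldha, at 145 and 48 bases before the start, against 6.02% of all windows. The GC box GGGCGG occurred in 7 of 9 genes against 32.7% of windows, and TATAAA in 0 against 12.4%. The 9 genes have 13 windows, so a gene with several had more chances, and a match of letters is no evidence of binding.

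Hk2, the hexokinase that commits glucose to the cell, had the widest range of group means of the 9 genes on both diets, with its highest level at ZT4. On the control diet its values were 7.51, 7.23, 6.89 and 7.43 at ZT0, and 8.03, 8.22 and 8.31 at ZT4. They were 7.78 and 7.16 at ZT8, and 7.24, 7.49 and 7.50 at ZT12. The 3 arrays of ZT4 lay above every array of ZT0, ZT8 and ZT12. Values were high again later in the cycle, with 7.64, 8.17, 7.69 and 8.15 at ZT16 and 8.33, 7.89, 7.76 and 7.86 at ZT20. The order of group means was ZT4, ZT20, ZT16, ZT8, ZT12 and ZT0, and the arrays of each neighbouring pair in that order overlapped.

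On the high fat diet Hk2 read 7.39, 7.20 and 7.57 at ZT0, and 8.32, 8.45, 8.16 and 8.38 at ZT4. It read 7.57 and 7.42 at ZT8, and 7.28, 7.36, 7.42 and 7.09 at ZT12. These arrays fell into a high set at ZT4 and a low set at ZT0, ZT8 and ZT12 that did not overlap. The values were 7.83, 7.77, 8.12 and 8.04 at ZT16 and 7.89, 8.17, 8.12 and 8.26 at ZT20, all above those of ZT8. The order of means was ZT4, ZT20, ZT16, ZT8, ZT0 and ZT12, and the one neighbouring pair without overlap was ZT16 and ZT8.

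From its lowest to its highest group mean Hk2 spanned 0.92 on the log2 scale on the control diet, a 1.90-fold range, and 1.04 on the high fat diet, a 2.05-fold range. The F test between the 6 time points gave limma adjusted p = 5.16e-05 on the control and 3.93e-06 on the high fat diet. Against the mean of its other 5 time points, ZT4 was higher by 0.58 ± 0.13 (SE, n = 3 arrays at ZT4; limma adjusted p = 0.00277) on the control diet. The high fat ZT4 value was higher by 0.68 ± 0.11 (SE, n = 4; limma adjusted p = 0.000269). ZT0 was lower than the rest by -0.52 ± 0.11 on the control and -0.44 ± 0.13 on the high fat diet (limma adjusted p = 0.00236 and 0.0338). These contrasts of a time point with the rest were added after the group means had been seen. The lowest mean was at ZT0 on the control and at ZT12 on the high fat diet, and a 24 h cosine did not pass on either (adjusted p = 0.93 and 0.367, limma). The correlation of the 6 group means between the diets was 0.98, given as a description over shared time points and collection days.

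The transporter Slc2a1 also had its highest mean at ZT4 on both diets. Its control values at ZT4 were 11.86, 12.06 and 12.03, and its high fat values were 12.10, 12.01, 11.95 and 12.16. The lowest control group was ZT12, with 11.50, 11.44 and 11.50, and the 2 control arrays of ZT8 read 11.55 and 11.56. On the high fat diet the 2 arrays of ZT8 were far apart, at 11.89 and 11.36, and the 4 of ZT12 read 11.72, 11.67, 11.88 and 11.47. The range of the group means was 0.50 on the control and 0.43 on the high fat diet (limma adjusted p = 0.00352 and 0.00258). ZT4 exceeded the rest by 0.32 ± 0.08 and 0.29 ± 0.07 (SE, n = 3 and 4; limma adjusted p = 0.00785 and 0.00809). The higher level at ZT4 did not pass without control ZT4 replicate 2 or 3, or without high fat ZT4 replicate 4, where the adjusted p reached 0.0776 and 0.0605 (limma). For Slc2a1 and Hk2 the correlation of the 12 group means was 0.80, the highest that either had with another of the 9 genes.

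**Figure D1:**
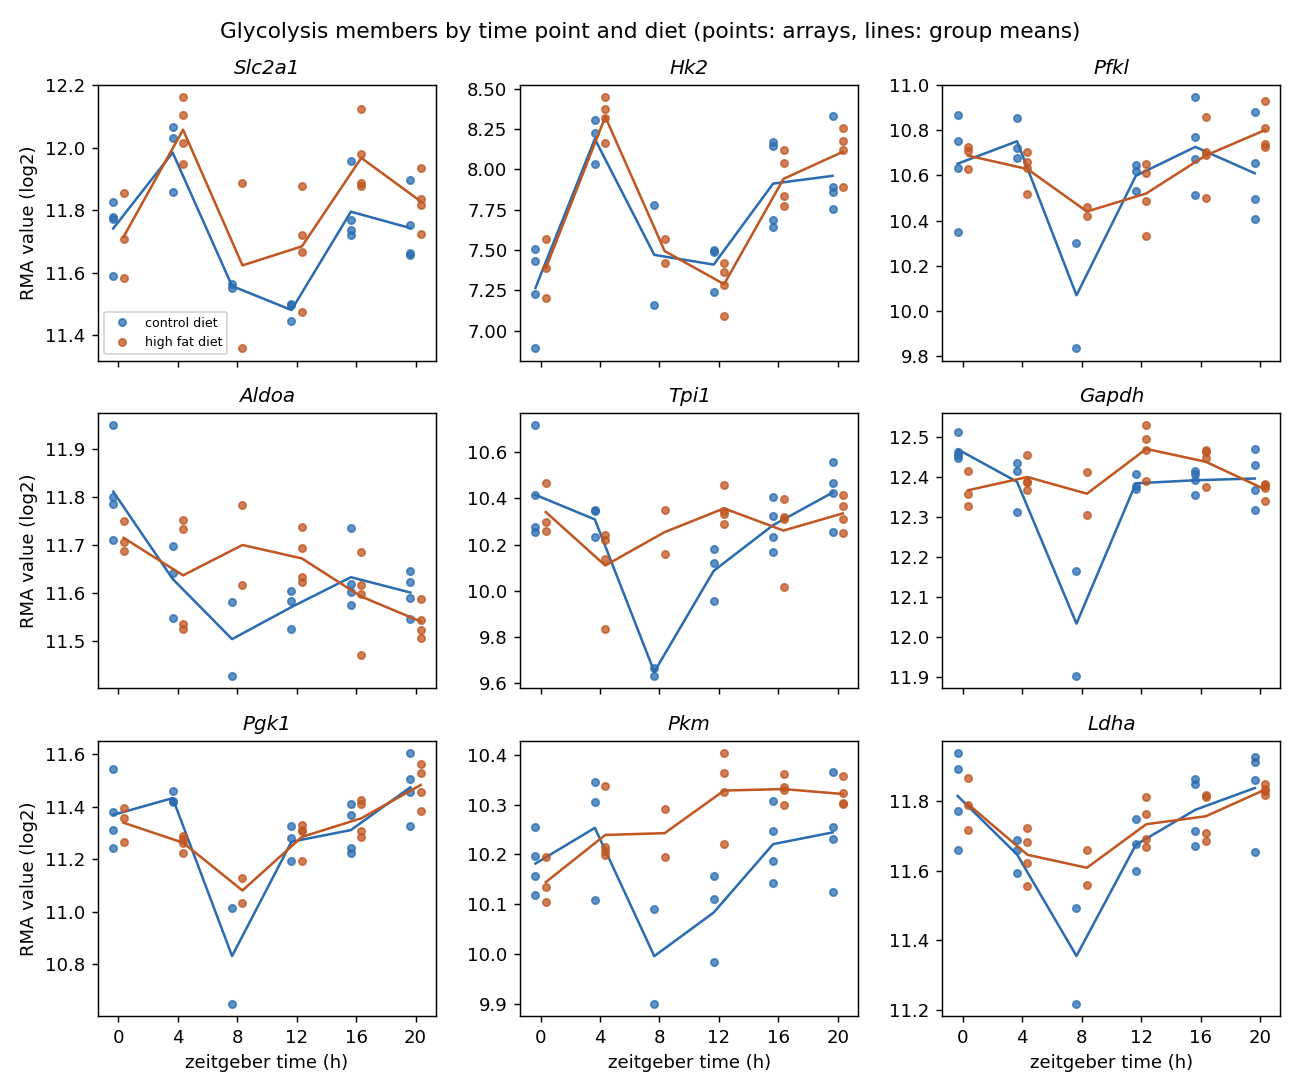
RMA value (log2) of each of the 9 genes against zeitgeber time (h), with a point for each array, a line through the group means and blue for control, orange for high fat diet; each panel has its own scale. Hk2 and Slc2a1 are highest at ZT4 on both diets, and the 2 control arrays of ZT8 are low in most of the other enzymes.

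All 9 genes passed the test between time points on the control diet, where 43.9% of all genes tested did (limma, adjusted p under 0.05). On the high fat diet 3 of the 9 passed, Slc2a1, Hk2 and Pgk1, against 41.5% of all genes. Leaving out the 2 control arrays of ZT8 left 3 genes on the control diet, Slc2a1, Hk2 and Aldoa. When each diet was fitted on its own arrays, the number on the high fat diet was 6, and without control ZT20 replicate 2 it was 5. These counts do not test a difference between the diets.

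From phosphofructokinase to lactate dehydrogenase the lowest control group of all 7 enzymes was ZT8. Tpi1 read 9.63 and 9.67 in the 2 control arrays of ZT8, below the 9.96 to 10.72 of all other control arrays. Gapdh read 12.16 and 11.90 there, below the 12.31 to 12.51 of the other 18. Pgk1 read 11.01 and 10.65, below the 11.19 to 11.60 of the other 18. Replicate 2 was the lower of the pair for Pfkl, Aldoa, Gapdh, Pgk1, Pkm and Ldha. Pfkl read 10.30 and 9.84, Pkm 10.09 and 9.90, and Ldha 11.49 and 11.22. Against the mean of the other 5 control time points, ZT8 was lower in 6 of the 9 genes and higher in 0, while 18.4% of all genes were lower and 12.2% higher (limma). The differences were -0.66 ± 0.10 for Tpi1, -0.60 ± 0.11 for Pfkl and -0.54 ± 0.07 for Pgk1 (SE; limma adjusted p = 5.51e-06, 0.000126 and 5.92e-07). They were -0.40 ± 0.07 for Ldha, -0.37 ± 0.05 for Gapdh and -0.20 ± 0.06 for Pkm (SE; limma adjusted p = 4.26e-05, 2.73e-07 and 0.00867). Without replicate 2 of control ZT8, Pfkl and Pkm no longer passed (limma adjusted p = 0.0903 and 0.403), so those calls rest on that array.

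The same 2 control arrays differed in many other genes. All 8 basal keratinocyte markers were lower there than at the other control time points, and 7 of 8 suprabasal markers were higher (limma). Of 9 leukocyte and Langerhans markers 5 were lower and 1 higher, and of 7 bulge markers 3 were higher and 1 lower. Of 7 fibroblast markers 1 was higher and 2 lower, of 7 skeletal muscle markers 2 higher and 1 lower, and of 5 endothelial markers 1 higher. The mean of the basal list was 11.20 and 11.34 in these 2 arrays, against 11.71 to 11.99 in all arrays of the other time points. The suprabasal list was at 10.74 and 10.52, against 9.44 to 10.10 in the arrays of other time points. The bulge list ran from 8.29 to 8.50 in these 2 arrays, against 7.60 to 8.27 in all other arrays. High fat ZT8 replicate 2 was like them in the basal and suprabasal lists, at 11.18 and 10.61, whereas replicate 1 read 11.80 and 9.77. In the 2 high fat arrays of ZT8 the bulge list ran from 7.90 to 8.15. In that replicate 2 of the high fat diet 6 of the 9 genes lay within the range of the other high fat time points, among them Gapdh at 12.41 and Tpi1 at 10.35. Pgk1 at 11.13 and Slc2a1 at 11.36 lay below that range, and Aldoa at 11.78 above it. The part that cell composition or RNA quality had in the low control values was not tested.

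Gapdh also has 3 control probe sets on the array, which target the 3′ end, the middle and the 5′ end of its transcript. At control ZT8 their means were 11.68, 11.44 and 12.05, and in the other 11 groups they ranged from 11.98 to 12.12, 11.74 to 11.89 and 12.32 to 12.42. All 3 were thus lower in those arrays, as was the Gapdh probe set proper. The difference of the 3′ minus the 5′ control probe set, a rough sign of RNA integrity, averaged -0.37 at control ZT8, and over all arrays it ran from -0.37 to -0.24. The same difference for the Actb control probe sets averaged -0.62 at control ZT8, and over all arrays it ran from -0.81 to -0.47.

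**Figure D2:**
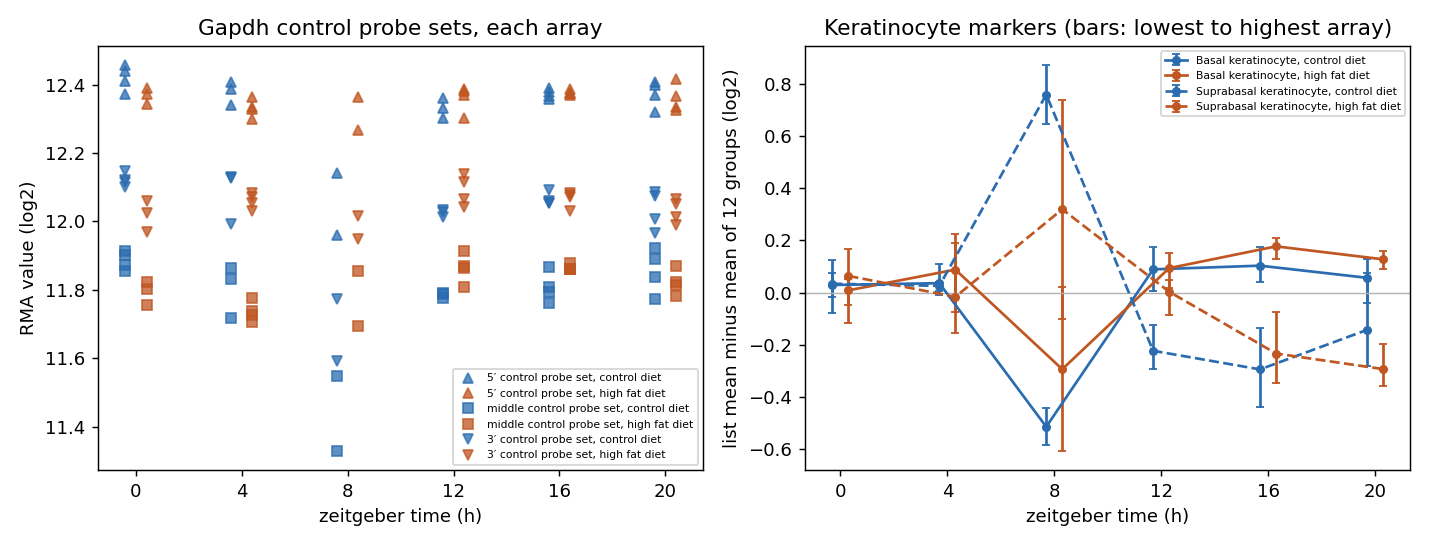
Left, RMA values (log2) of the 3 Gapdh control probe sets in each array against zeitgeber time (h). Right, the mean of 8 basal (solid) and 8 suprabasal (dashed) keratinocyte markers in each group, as the log2 difference from the mean of the 12 groups, with bars from the lowest to the highest array; control ZT8 lies at -0.51 for basal and 0.76 for suprabasal markers.

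Among the high fat arrays Pgk1 was the 1 gene of 9 that was lower at ZT8 than at the other time points, by -0.26 ± 0.07 (SE, n = 2 arrays; limma adjusted p = 0.0168), where 4.09% of all genes were lower. It did not pass when either of the 2 arrays was left out (limma adjusted p up to 0.205). Its 2 arrays read 11.03 and 11.13, below the 11.19 to 11.56 of all other high fat arrays. Pgk1 was highest at ZT20 on both diets, with 11.60, 11.33, 11.46 and 11.51 on the control and 11.53, 11.38, 11.46 and 11.56 on the high fat diet. Against the rest, ZT20 was higher by 0.23 ± 0.05 and 0.22 ± 0.05 (SE, n = 4 each; limma adjusted p = 0.00292 and 0.00663). Without ZT8 the high fat value was 0.17 (limma adjusted p = 0.0219), and the control value was 0.13 and no longer passed (limma adjusted p = 0.0791).

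Around ZT0 the control diet had higher values of several enzymes. Aldoa read 11.95, 11.80, 11.71 and 11.79 at ZT0, with 1 other control array, at ZT16, above the lowest of them, and was higher than the rest by 0.22 ± 0.05 (SE, n = 4; limma adjusted p = 0.00108). Tpi1, Gapdh and Ldha were also higher at control ZT0, by 0.26, 0.15 and 0.16 (limma adjusted p = 0.0161, 0.00383 and 0.0414). Hk2 was lower at that time, so 4 of the 9 genes were higher and 1 was lower, where 7.24% of all genes were higher and 4.96% lower. Without ZT8 the higher Aldoa and the lower Hk2 still passed, at 0.20 and -0.60 (limma adjusted p = 0.00224 and 0.000333), and those of Tpi1, Gapdh and Ldha did not. The trough of ZT8 enters the mean of the rest in all these contrasts. At high fat ZT0 0 of the 9 genes were higher than in the rest and 1, Hk2, was lower, against 3.49% and 2.38% of all genes (limma; at an unadjusted p under 0.05, 0 were higher and 2 lower). Without ZT8 Pkm was also lower there, by -0.16 (limma adjusted p = 0.0316).

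At the other time points few of the 9 genes differed from the rest of their diet. At ZT4 Slc2a1, Hk2 and Pgk1 were higher on the control diet and Slc2a1 and Hk2 on the high fat diet, against 6.25% and 3.59% of all genes higher (limma). The control Pgk1 difference at ZT4 was 0.18 (limma adjusted p = 0.0410), and it missed the threshold in 7 of the 41 fits that left out 1 array. Without ZT8 it was 0.08 and did not pass (limma adjusted p = 0.391). Without control ZT4 replicate 2 the control count was 1, and without high fat ZT4 replicate 4 the high fat count was 1. In the control ZT4 arrays 3 of 7 bulge, 2 of 7 fibroblast and 1 of 9 leukocyte and Langerhans markers were higher (limma). Of 5 endothelial markers 1 was lower there. On the high fat diet 1 of 7 bulge, 1 of 9 leukocyte and 1 of 7 skeletal muscle markers were higher at ZT4. The basal and suprabasal markers differed in 0 of 8 each, and the part of cell composition at ZT4 was not tested. At ZT12 Slc2a1 was lower on the control and Hk2 on the high fat diet, by -0.28 and -0.56 (limma adjusted p = 0.0310 and 0.000383), against 2.71% and 8.14% of all genes lower. Without ZT8 the control count at ZT12 was 3 lower, with Hk2 at -0.42 and Tpi1 at -0.27 beside Slc2a1 (limma adjusted p = 0.0349 and 0.0498 for the former). On the high fat diet it was then 2 lower, with Slc2a1 at -0.21 beside Hk2, and 1 higher, Gapdh at 0.08 (limma adjusted p = 0.0120 and 0.0471). ZT16 differed in 0 of the 9 on either diet, against 6.32% and 9.71% of all genes (limma; 3 and 1 at an unadjusted p under 0.05, all higher). At ZT20 Tpi1, Pgk1 and Ldha were higher on the control diet and Hk2 and Pgk1 on the high fat diet, against 7.56% and 4.66% of all genes higher. Without ZT8, none of the control 3 passed at ZT20, and both high fat genes did (limma adjusted p = 0.0316 for Hk2 and 0.0219 for Pgk1).

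A 24 h cosine was fitted to each diet, in which the amplitude is the distance from mean to peak on the log2 scale. It passed for 4 of 9 genes on the control diet, where 6.66% of all genes passed, and for 1 of 9 on the high fat diet, where 11.2% did (limma). On the control diet Tpi1 had an amplitude of 0.29 ± 0.05 (SE) with a fitted peak at 21.3 h, and Ldha had 0.19 ± 0.03 with a peak at 20.1 h (limma adjusted p = 0.00134 and 0.00101). Pgk1 had 0.19 ± 0.04 at 21.3 h and Gapdh 0.11 ± 0.03 at 20.9 h (limma adjusted p = 0.0159 and 0.0441). On the high fat diet Pgk1 had 0.15 ± 0.04 with a peak at 19.8 h (limma adjusted p = 0.0469). Peaks are no finer than the 4 h sampling.

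The control cosines rested on ZT8, and those of both diets on treating the arrays of 1 time point as independent. Without either control array of ZT8 alone 2 genes passed on the control diet. The control cosine of Gapdh was lost in 14 of the 41 fits that left out 1 array and in 5 of 10 other settings. That of Pgk1 was lost in 2 and 3 of these, and those of Tpi1 and Ldha in 0 and 2. The high fat cosine of Pgk1 was lost without ZT12 and kept without ZT8. The high fat count changed in 22 of the 41 fits that left out 1 array, to 0 in most. Without the ZT8 arrays 0 of the 9 genes passed on the control diet, and with the group as a random block 0 passed on either diet (limma). The correlation within groups estimated for that block was 0.37. The difference of the cosine between diets passed for 0 of the 9 genes (limma; 4 at an unadjusted p under 0.05), against 3.58% of all genes. The smallest adjusted p of a difference was 0.0631, for Tpi1 (limma).

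The diets differed at ZT8 in 3 of the 9 genes, all higher on the high fat diet, where 8.34% of all genes differed and 5.42% were higher (limma). Tpi1, the triose isomerase, read 9.63 and 9.67 on the control and 10.16 and 10.35 on the high fat diet. Its difference was 0.61 ± 0.13 (SE, n = 2 against 2; limma adjusted p = 0.00376), or 1.52-fold. Gapdh read 12.16 and 11.90 against 12.30 and 12.41, a difference of 0.33 ± 0.06 (SE; limma adjusted p = 0.00117). Pkm, which makes pyruvate, read 10.09 and 9.90 against 10.19 and 10.29, a difference of 0.25 ± 0.08 (SE; limma adjusted p = 0.0449). The Pkm call was lost in 5 of 9 other settings and that of Tpi1 in 2 of 9. Over all 9 settings the adjusted p ran from 0.0411 to 0.479 for Pkm and from 0.00216 to 0.33 for Tpi1 (limma). In all 3 genes both high fat arrays lay above both control arrays. These comparisons of 2 against 2 arrays borrow their spread from all 41 arrays, and with the 4 arrays of ZT8 alone 0 of the 9 passed (limma).

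The other 6 genes at ZT8 did not pass. Ldha read 11.49 and 11.22 on the control and 11.66 and 11.56 on the high fat diet, a difference of 0.25 with a 95% interval of 0.07 to 0.44 (limma adjusted p = 0.0798). Pgk1 differed by 0.25, Pfkl by 0.37 and Aldoa by 0.20 (limma adjusted p = 0.0939, 0.124 and 0.128). In these 4 genes the arrays of the diets also did not overlap, so 7 of 9 genes had no overlap at ZT8, where 46.5% of all genes had none. Slc2a1 and Hk2 differed by 0.07 and 0.02, with 95% intervals of -0.19 to 0.32 and -0.39 to 0.44. Without replicate 1 of control ZT8 the count was 6 of 9, and without replicate 2 it was 1, Tpi1. The basal markers differed between the diets at ZT8 in 1 of 8 (higher on the high fat diet) and the suprabasal markers in 3 of 8 (lower). Of 7 bulge markers 2 were lower on the high fat diet, and of 9 leukocyte and Langerhans markers 2 were higher. The fibroblast and endothelial markers were lower in 1 of 7 and 1 of 5 (limma).

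At ZT12 Pkm was the 1 gene of 9 that differed, higher on the high fat diet, where 18% of all genes differed and 13.6% were higher (limma). It read 10.11, 9.98 and 10.16 on the control and 10.33, 10.22, 10.36 and 10.40 on the high fat diet, so the groups did not overlap. The difference was 0.25 ± 0.06 (SE, n = 3 against 4; limma adjusted p = 0.0048), or 1.19-fold. Without control ZT12 replicate 2 it missed the threshold (limma adjusted p = 0.0553). Tpi1 read 10.12, 9.96 and 10.18 against 10.46, 10.34, 10.29 and 10.33, also without overlap, with a difference of 0.27 ± 0.10 (SE; limma adjusted p = 0.0582). Aldoa also had no overlap, and 28.2% of all genes had none at ZT12. In the same arrays 5 of 9 leukocyte and Langerhans markers were higher and 1 lower on the high fat diet, as were 3 and 1 of 7 bulge markers and 2 and 0 of 8 suprabasal markers, and 2 of 7 melanocyte markers were lower (limma). The mean of the leukocyte list was 6.96 to 7.20 on the high fat and 6.77 to 6.91 on the control diet. Its markers lay between the 1.71st (Ptprc) and the 76.1st percentile (H2-Ab1) of the genes tested. The bulge list lay at 7.97 to 8.27 against 7.72 to 7.75, and the suprabasal list at 9.79 to 9.92 against 9.58 to 9.75. The fibroblast list lay at 5.98 to 6.21 against 5.91 to 5.93, and the melanocyte list was lower on the high fat diet, at 6.06 to 6.20 against 6.32 to 6.36. The part of these lists in the Pkm difference was not tested.

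At ZT0, ZT4, ZT16 and ZT20 the diets differed in 0 of the 9 genes, against 0.854%, 0.386%, 1.24% and 0.702% of all genes (limma). At an unadjusted p under 0.05 the counts were 1, 1, 0 and 0. Gapdh at ZT0 read 12.51, 12.46, 12.46 and 12.45 on the control and 12.36, 12.33 and 12.42 on the high fat diet. It was lower without overlap, by -0.10 with a 95% interval of -0.20 to -0.01 (limma adjusted p = 0.346). Pgk1 at ZT4 was likewise lower without overlap, by -0.17 with an interval of -0.32 to -0.02 (limma adjusted p = 0.331). The diets did not overlap for 13.4% of all genes at ZT0 and 11.2% at ZT4.

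Averaged over the 6 time points, Pkm was the 1 gene of 9 that differed, by 0.10 ± 0.03 (SE, 20 against 21 arrays; limma adjusted p = 0.0116), where 7.59% of all genes differed. Its mean was higher on the high fat diet at 4 of 6 time points. The call ended without ZT8, without ZT12 and without the control arrays of ZT8 alone, so it rests on these time points. Hk2, which moved most over the day, had a diet average of 0.06 with a 95% interval of -0.08 to 0.19 (limma adjusted p = 0.629). Its difference at single time points lay between -0.12 and 0.15.

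A test of whether the diet difference varied over the 6 time points passed for 3 of the 9 genes, Gapdh, Tpi1 and Pkm, against 19% of all genes (limma adjusted p = 0.00462, 0.00522 and 0.0492). Without the ZT8 arrays it passed for 0 of the 9. For Tpi1 the difference ran from -0.20 at ZT4 to 0.61 at ZT8, and for Gapdh from -0.10 at ZT0 to 0.33 at ZT8. The Pkm call lay at the threshold and was lost in 31 of the 41 fits that left out 1 array.

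**Figure D3:**
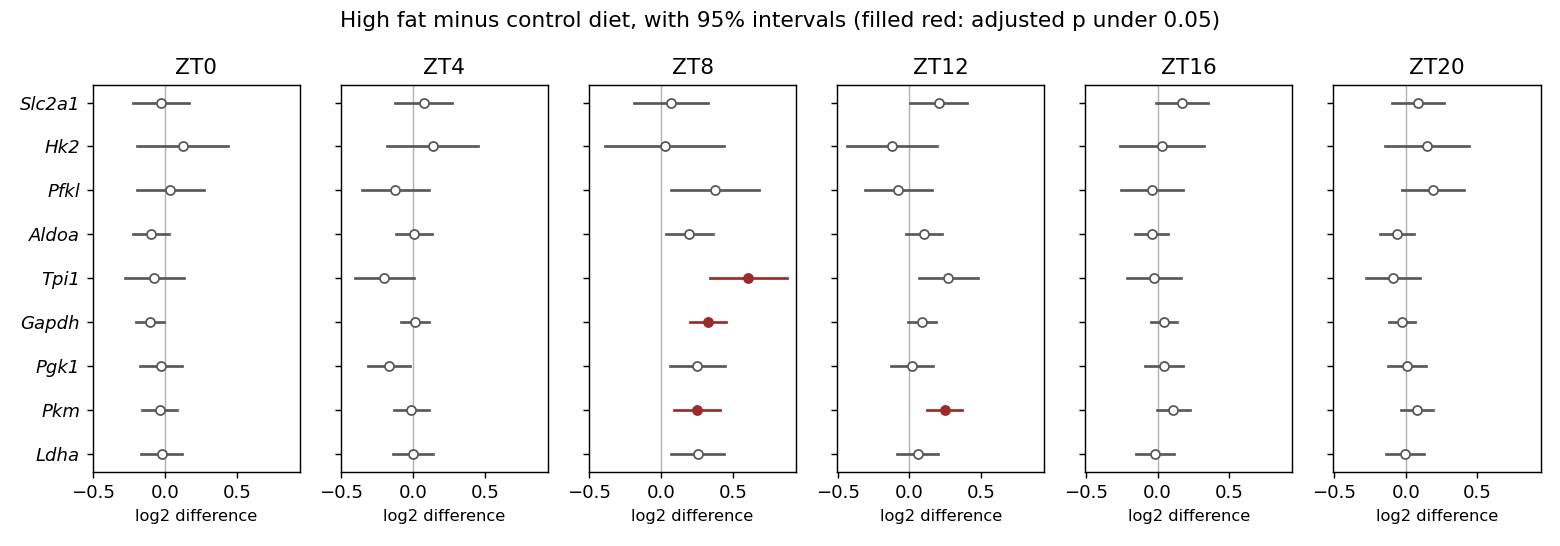
Difference of the high fat minus the control diet (log2) for the 9 genes at each of the 6 time points, with 95% intervals from the limma fit; filled red points passed an adjusted p of 0.05. Tpi1, Gapdh and Pkm pass at ZT8 and Pkm at ZT12, and the intervals of Hk2 include 0 at all 6.

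The other probe sets of these genes mostly followed the first. Over the 12 group means they correlated with it at 0.89 to 0.95 for Aldoa, 0.94 for Tpi1, 0.95 for Slc2a1, 0.95 for 1 of Pfkl and 0.99 for Pgk1. The second probe set of Slc2a1 gave a larger diet difference than the first, 0.46 against 0.20 at ZT12 and 0.23 against 0.10 on average. It passed where the first did not (limma adjusted p = 0.0100 and 0.00831 against 0.145 and 0.144 over all probe sets). The remaining Pfkl probe set differed, with a correlation of 0.40 to the first and a lower value on the high fat diet at ZT12 (-0.40; limma adjusted p = 0.0431). Of the 4 Aldoa probe sets 2 passed at ZT8, at 0.32 and 0.27 (limma adjusted p = 0.0371 and 0.0217). Probe sets of Aldoa, Tpi1, Pgk1 and Gapdh carry suffixes that mark probes shared with other transcripts, and these genes have processed pseudogenes, so a signal from near copies cannot be told apart.

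By the Pearson correlation of their 12 group means, other genes were ranked for likeness to each course, as a description over shared arrays. Predicted genes were passed over. Nearest to Hk2 were Map7d1 at 0.98, Epha2 at 0.97 and Ube2q2 at 0.96. Nearest to Slc2a1 were Rps6ka3 and Ripk3 at 0.95 and Irf5 at 0.94. Gapdh was followed most closely by Txndc17 and Dnajb5 at 0.97, and Ldha by H2bc22 at 0.97 and Hspa13 at 0.96. Hspa13 was also among the 3 nearest to Tpi1, at 0.94. By rank (Spearman) Txndc17 and Dnajb5 were at 0.73 and 0.78 with Gapdh. Hspa13 was at 0.73 with Tpi1 and 0.88 with Ldha, and H2bc22 at 0.92 with Ldha. The Gapdh mean was 12.03 at control ZT8, against 12.36 to 12.47 in the other groups. Among the 9 genes themselves the closest pairs were Pfkl with Pgk1 at 0.92, Tpi1 with Ldha at 0.91 and Pgk1 with Ldha at 0.90, and Hk2 with Aldoa was the most opposed at -0.40.

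Outside the 9 genes, 19 of 20 listed factors and targets of HIF-1 that are not glycolytic were measured. On each diet 12 of the 19 changed between time points, where 43.9% of all genes on the control and 41.5% on the high fat diet did (limma). Of the 19, 8 were lower and 1 higher at control ZT8 than in the rest, against 18.4% and 12.2% of all genes. For these and the pathway genes below, the control counts were not tested without ZT8. Ndrg1, a stress-responsive gene, had its highest mean at ZT4 on both diets, at 10.70 ± 0.08 (SD, n = 3) on the control and 10.65 ± 0.40 (SD, n = 4) on the high fat diet. It exceeded the rest by 1.22 ± 0.17 and 0.86 ± 0.15 (SE; limma adjusted p = 3.06e-05 and 0.000548). Adm, a vasodilator peptide, was also highest at ZT4, by 0.95 ± 0.16 and 0.71 ± 0.14 (SE; limma adjusted p = 0.000165 and 0.00127). Vegfa, the angiogenic growth factor, exceeded the rest at ZT4 by 0.61 ± 0.15 on the high fat diet (SE; limma adjusted p = 0.00923). On the control diet its value was 0.41 ± 0.17 (SE; limma adjusted p = 0.121). At ZT4 4 of 19 were higher and 0 lower on the control diet, and 3 were higher and 2 lower on the high fat diet, where 6.25% and 3.59% of all genes were higher and 4.98% and 5.48% lower. The median difference of the 19 at ZT4 was 0.02 on the control and -0.07 on the high fat diet.

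Of 27 other glycolytic isozymes and transporters 23 were measured, and 11 changed between time points on the control and 6 on the high fat diet, against 43.9% and 41.5% of all genes (limma). Slc16a3, which exports lactate, and Bsg, its chaperone at the membrane, were lower at control ZT8 than in the rest, by -1.26 and -0.72 (limma adjusted p = 1.16e-06 and 1.46e-07). They were among 4 of the 23 that were lower there, against 18.4% of all genes. Between the diets at ZT8 Slc16a3 and Bsg were the 2 of 23 that differed, where 8.34% of all genes did, and both were higher on the high fat diet, by 0.91 ± 0.23 and 0.64 ± 0.12 (SE; limma adjusted p = 0.0122 and 0.000757). Pfkp, the platelet phosphofructokinase, had a cosine on both diets, with amplitudes of 0.18 ± 0.04 and 0.18 ± 0.04 (SE; limma adjusted p = 0.00769 and 0.00442). A cosine passed for 3 of the 23 on the control and 2 on the high fat diet, against 6.66% and 11.2% of all genes. At ZT12 Bsg and the muscle phosphofructokinase Pfkm were higher on the high fat diet, by 0.28 ± 0.09 and 0.46 ± 0.13, and Pgk2 was lower by -0.22 ± 0.07 (SE; limma adjusted p = 0.0284, 0.0161 and 0.0298). These were the 3 of 23 that differed at ZT12, where 18% of all genes did.

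**Figure D4:**
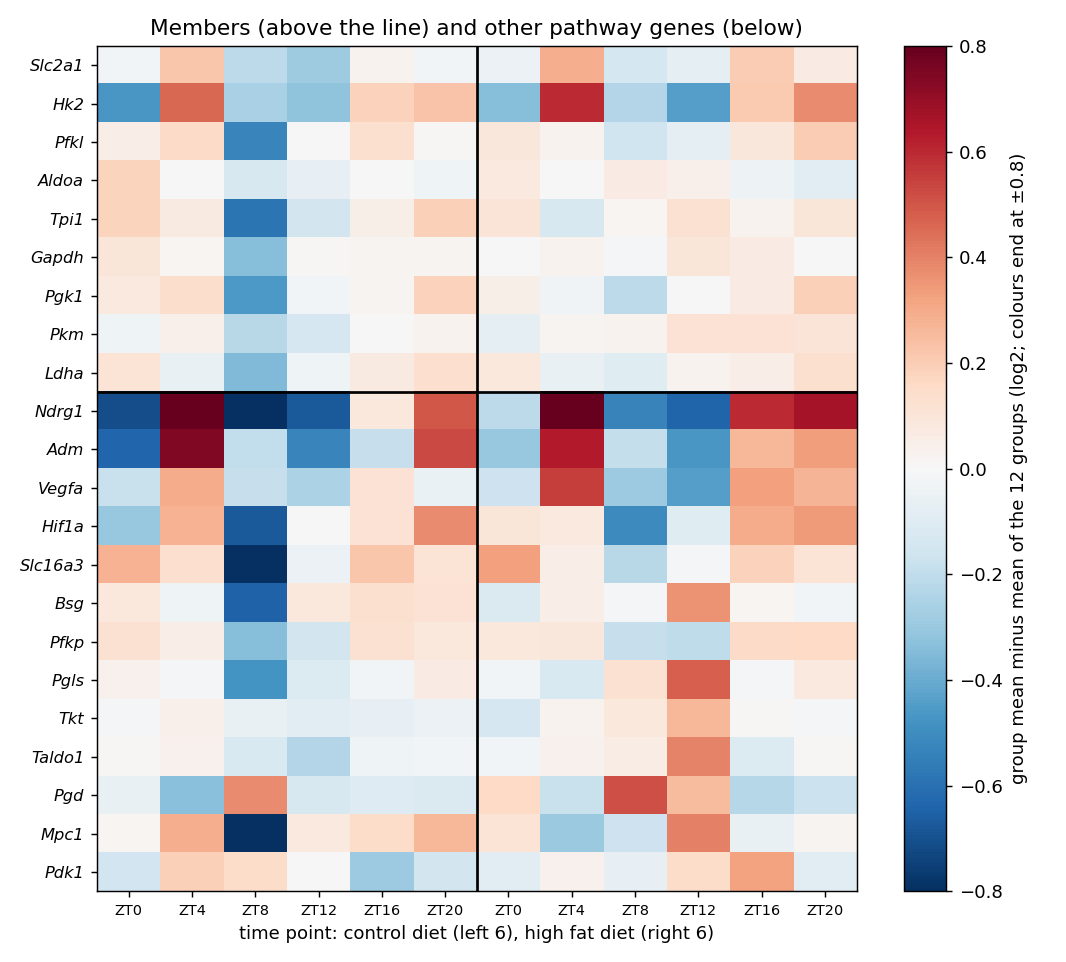
Group means of the 9 genes (above the line) and of other pathway genes picked after their values were seen (below), as log2 differences from the mean of the 12 groups, with the 6 control groups on the left and the 6 high fat groups on the right. Ndrg1, Adm and Hk2 share the high ZT4 columns of both diets, and control ZT8 is low in most enzymes.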

How the data were processed

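RNA of 41 samples, 20 on the control and 21 on the high fat diet, was measured on Affymetrix arrays after amplification of 25 ng of total RNA for 17 cycles, per the labels' protocols. The authors deposited log2 values made with RMA, per the submitters' processing notes. The sources used here give no RMA version and no batch adjustment. RMA forces array distributions to be alike, so a shift shared by all genes cannot be seen, and no filter on low values was applied. The log2 scale rests on the range of the deposited values. Of 45141 probe sets 28898 had 1 gene in the platform annotation, 551 had several and were left out, and 15692, with the 104 control probe sets, were unnamed. After renaming by Entrez identifier, 17055 of 17097 symbols are in RefSeq's gene table.

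Tests used limma 3.58.1 in R 4.3.3. One model had a mean for each of the 12 groups (29 residual and 2.63 prior degrees of freedom), and another a 24 h cosine for each diet (35 and 2.29). The 17097 genes were adjusted together (Benjamini-Hochberg), and calls were made at 0.05. On simulated data with independent noise in each array, the recovery of added diet averages and high fat cosines was checked. The other tests were not checked in that way. Figures were drawn with matplotlib 3.10.9. The replicate numbers were not used to pair the samples in the main fits. Over 19 same-numbered pairs, deviations from the group mean correlated at -0.27 to 0.25, and 2 pairs were over 0.1. Over 53 differently numbered pairs the range was -0.26 to 0.36, and 13 were over 0.1. These values cannot show whether samples were collected or processed as pairs.

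The text names all members, members of the other pathway lists that passed a test, and the genes nearest to each member in course. The members, lists and rules were chosen with earlier results of these data known, and the contrasts of a time point with the rest after the group means were seen. The alternatives tried were other summaries of probe sets, filters, centring, array weights, blocks and the leaving out of arrays or time points. The number of arrays limits the precision.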

Additional observations from a re-analysis of the deposited data

Results flagged for a closer look

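The size of the diet difference varied over the day for Tpi1 (limma adjusted p = 0.00522), Gapdh (limma adjusted p = 0.00462) and Pkm (limma adjusted p = 0.0492). Tpi1 and Gapdh kept the call whichever single array was left out, and lost it without the ZT8 arrays. For Tpi1 the largest adjusted p over the 41 fits with 1 array left out was 0.0241, and for Gapdh it was 0.0378. The Pkm call was lost in 31 of those 41 fits, where the adjusted p rose to 0.106.

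One array stood apart from its group in 1 of the 9 genes. Pkm read 10.34 in high fat ZT4 replicate 2, where the nearest of the other 3 arrays read 10.22 and the farthest 10.20. The gap took 0.882 of the range of the group, above the limit of 0.829 for groups of 4 arrays. Of 63 groups of 4 arrays tested 1 was over that limit, and chance alone would put about 1 in 20 there.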

How the results depend on the processing

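The 37 calls in the 9 genes were over time, cosine, diet, and ZT4 and ZT8 against the rest. Of 357 pairs of an alternative setting and 1 of these calls, 298 kept the threshold, 59 lost it and 0 reversed. With 1 array left out, 90 of 1517 pairs lost it and 0 reversed. Only differences between the diets and contrasts with the rest could reverse. Calls over time, of a cosine or of the diet effect by time rest on ranges or amplitudes, which have no direction. Counts below are of the 9 genes, and the cause of a change was not tested. Without ZT8 the counts were 3 for time on the control diet, 0 for the control cosine, 0 for the diet average and 0 for the diet effect by time. Without ZT12 they were 0 for the high fat cosine and 0 for the diet average. Added after seeing the data, leaving out the control ZT8 arrays gave 3 for time on the control diet and 0 for the diet average, and leaving out ZT8 and ZT12 gave 0 for the average and 0 for the effect by time. With only the arrays compared, time on the high fat diet gave 6, and diet at ZT8 and at ZT12 gave 0 and 0. With the group as a random block the cosines gave 0 and 0. Array weights gave 2 and 2 for the cosines, 1 and 2 for diet at ZT8 and ZT12, and 0 for high fat ZT8 against the rest. Averaging all probe sets of each gene gave 0 for the high fat cosine, 2 for diet at ZT12 and 2 for the diet average. Subtracting the array medians of the genes tested gave 2 for the high fat cosine. The replicate number as a block gave 0 for the high fat cosine. Against the rest without ZT8, control ZT0 had 1 gene higher in place of 4, control ZT20 0 in place of 3, control ZT12 3 lower in place of 1, and high fat ZT0 and ZT12 2 and 2 lower in place of 1 and 1. Without each array in turn, counts ran from 7 to 9 and 3 to 5 for time, 2 to 4 and 0 to 2 for the cosines (control, high fat), and 0 to 2 for the cosine difference. Diet ran from 1 to 6 at ZT8, 0 to 2 at ZT12, 1 to 2 on average and 2 to 4 by time, and stayed at 0 at ZT0, ZT4, ZT16 and ZT20. Against the rest, ZT4 ran from 1 to 3 on the control and 1 to 2 on the high fat diet, and ZT8 from 4 to 8 and 0 to 1. Signal over background is unknown from these values.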

Other observations

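The oxidative and non-oxidative pentose phosphate pathway branches from glucose 6-phosphate and makes NADPH and ribose. Of its 7 listed genes 5 were measured, and G6pdx and Rpe were not. At ZT12 4 of the 5 differed between the diets, all higher on the high fat diet, where 13.6% of all genes were higher (limma). Taldo1, the transaldolase, was at 8.88 ± 0.11 (SD, n = 3) on the control and 9.51 ± 0.21 (SD, n = 4) on the high fat diet, a difference of 0.63 ± 0.12 (SE; limma adjusted p = 0.000541). Pgls, which opens the lactone ring, differed by 0.58 ± 0.10, the transketolase Tkt by 0.36 ± 0.07 and the dehydrogenase Pgd by 0.38 ± 0.14 (SE; limma adjusted p = 0.000218, 0.000548 and 0.0488). Pgls also differed at ZT8, by 0.60 ± 0.13 (SE), as the 1 of 5 that did, where 8.34% of all genes differed (limma). Rpia was the fifth gene, which did not pass at ZT12. In those arrays of ZT12 the leukocyte and Langerhans list was also higher (7.13 against 6.83), as were the bulge (8.12 against 7.74), suprabasal (9.88 against 9.65) and fibroblast lists (6.07 against 5.92). The melanocyte list was lower (6.14 against 6.34), all without overlap between the diets, and their part was not tested.

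Genes that pass pyruvate into mitochondria changed between time points in 9 of 11 on the control and 7 of 11 on the high fat diet, against 43.9% and 41.5% of all genes (limma). Control ZT8 was lower than the rest in 3 of the 11 and higher in 2, against 18.4% and 12.2% of all genes. Mpc1, a subunit of the mitochondrial pyruvate carrier, was lower on the high fat diet at ZT4, by -0.59 ± 0.11, and higher at ZT8 and ZT12, by 0.64 ± 0.14 and 0.33 ± 0.11 (SE; limma adjusted p = 0.019, 0.00492 and 0.0353). Pdk1, a kinase that inhibits pyruvate dehydrogenase, was higher on the high fat diet at ZT16 by 0.61 ± 0.11 (SE; limma adjusted p = 0.00246). Pdp2, a phosphatase that activates it, was higher at ZT12 by 0.83 ± 0.13 (SE; limma adjusted p = 6.9e-05). Of the 11 genes 1, 1, 2 and 1 differed between the diets at ZT4, ZT8, ZT12 and ZT16. The shares of all genes were 0.386%, 8.34%, 18% and 1.24%. Of 10 glycogen genes 8 changed between time points on the control and 4 on the high fat diet, against the same 43.9% and 41.5%. Control ZT8 was lower than the rest in 7 of the 10 and higher in 1, and the control count was not tested without ZT8. Pygl, the liver form of glycogen phosphorylase, had a cosine on both diets, with amplitudes of 0.52 ± 0.09 and 0.40 ± 0.09 (SE; limma adjusted p = 0.000798 and 0.00653). It was the 1 of 10 with a cosine on each diet, against 6.66% and 11.2% of all genes. Of 6 genes that set the level of fructose bisphosphates 4 and 2 changed between time points, again against 43.9% and 41.5% of all genes. Tigar was lower than the rest at ZT4 on both diets, by -0.62 and -0.49 (limma adjusted p = 0.00477 and 0.0156). It was the 1 of 6 called at ZT4 on each diet, where 4.98% and 5.48% of all genes were lower.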
